A study of Homo sapiens with 32 samples.

Results

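The genes were followed here: ATF4, DDIT3, CHAC1, TRIB3, ASNS, PPP1R15A, SESN2, DDIT4, ATF5 and CEBPB, which belong to the integrated stress response. Each was taken as the transcript cluster, the set of exon array probes assigned to one gene, whose only platform gene symbol was that of the gene, and the cluster with the highest mean was to be used where a gene had several. All 10 genes were found, each with 1 cluster, among 14405 clusters with 1 symbol and 21788 clusters in all. The study measured RNA turnover in 7 human B-lymphoblastoid cell lines of the HapMap collection, which are B cells of 1 donor each made to grow without limit in culture. Every culture received 200 µM 4-thiouridine (4sU), a uridine analogue that cells build into the RNA they make, for 2 h. No array came from a culture without 4sU, so an effect of the labelling on these genes cannot be told apart. The labelled, newly made RNA was then separated from the total RNA of the same culture, and both fractions were hybridised to human exon arrays, 32 arrays in all and 16 for each fraction.

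GM07029, GM10835 and GM12813 were each grown as 3 independent cultures, and the other 4 lines, GM07019, GM12812, GM12814 and GM12815, as single cultures, which makes 13. Both fractions of the GM12813 cultures were hybridised to a pair of arrays each, and these technical duplicates were averaged. No line received a stress treatment or carries an engineered change according to the labels, so the comparisons are between nascent and total RNA and between lines. A line stands for 1 donor, 1 transformation event and 1 history in culture, and these cannot be told apart. In these bulk samples fewer cells of a type and less RNA per cell cannot be told apart either.

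In the integrated stress response, kinases that sense unfolded protein, lack of amino acids, viral RNA or lack of haem phosphorylate the translation factor eIF2, which slows protein synthesis in general and lets the mRNA of the transcription factor ATF4 be translated. ATF4 then switches on genes for amino acid supply, redox balance and further transcription factors, and a phosphatase subunit encoded by PPP1R15A closes the loop. B cells that turn to antibody secretion are known to rely on the XBP1 branch of the unfolded protein response, which lies beside the eIF2 branch.

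The letters of the 3 response elements named below were looked up in the 250 bases before and 50 bases after the RefSeq transcription starts (GRCh38.p14). All 10 genes matched the table, with 18 windows. The 3 stretches that held a match are shown because they mark where in the genes described below such letters lie. Capitals mark the match, and each stretch is written 5′ to 3′ on the strand of its gene.
ASNS promoter, chr7:97872458-97872487, minus strand: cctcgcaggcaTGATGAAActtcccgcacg
CHAC1 promoter, chr15:40953251-40953280, plus strand: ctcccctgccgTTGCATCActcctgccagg
PPP1R15A promoter, chr19:48872352-48872381, plus strand: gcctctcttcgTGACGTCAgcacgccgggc

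The ASNS match, 68 bases before the start, and the CHAC1 match, 209 bases before the start and on the opposite strand, are to the amino acid response element searched as TGATGNAA. It was found in 2 of the 18 windows of the 10 genes, against 3.62% of all 35116 windows searched on both strands. The PPP1R15A match, 58 bases before the start, is to the cyclic AMP response element TGACGTCA, which reads the same on both strands and was found in 1 of the 18 windows and in 1.85% of all windows. The endoplasmic reticulum stress element, CCAAT and CCACG with 9 bases of any kind between them, was in none of the 18 windows and in 0.0769% of all windows. Each of the 3 genes held 1 match, so no match overlapped another, and a match describes letters only.

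The deposited values were log2 array intensities. All 10 genes lay above background in both fractions, with background set at the 95th percentile of 216 olfactory receptor clusters (6.84 in nascent RNA and 5.97 in total RNA). Array medians ran between 7.58 and 7.92 in nascent RNA and between 6.74 and 6.95 in total RNA, so each culture was set to its median over the 14167 clusters above background before lines or fractions were compared. Of 9 B cell markers 8 were on the array, and all 8 were above background in total RNA, with CD74 highest at 12.34. None of 6 monocyte and granulocyte markers was above background, and 2 of 8 T and NK cell markers were (CD8A and NKG7). Of the fibroblast and epithelial markers 4 of 8 were (COL1A1, COL1A2, KRT8 and KRT19). KRT8 was the highest of these at 10.40, above the lowest B cell marker at 9.19. GM10835 had the lowest summed B cell marker intensity of the 7 lines (14956, range to 21290), and the highest summed T and NK marker intensity (484, range from 348) and fibroblast and epithelial marker intensity (1999, range from 1459). The total RNA of its cultures correlated with that of other lines at 0.916 to 0.921, against 0.932 to 0.954 for all other cultures. In nascent RNA the lowest such correlation was 0.917, in GM12815. The part of these features in the results below was not tested. Levels of different genes come from different probes and are not set against each other.

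**Figure D1:**
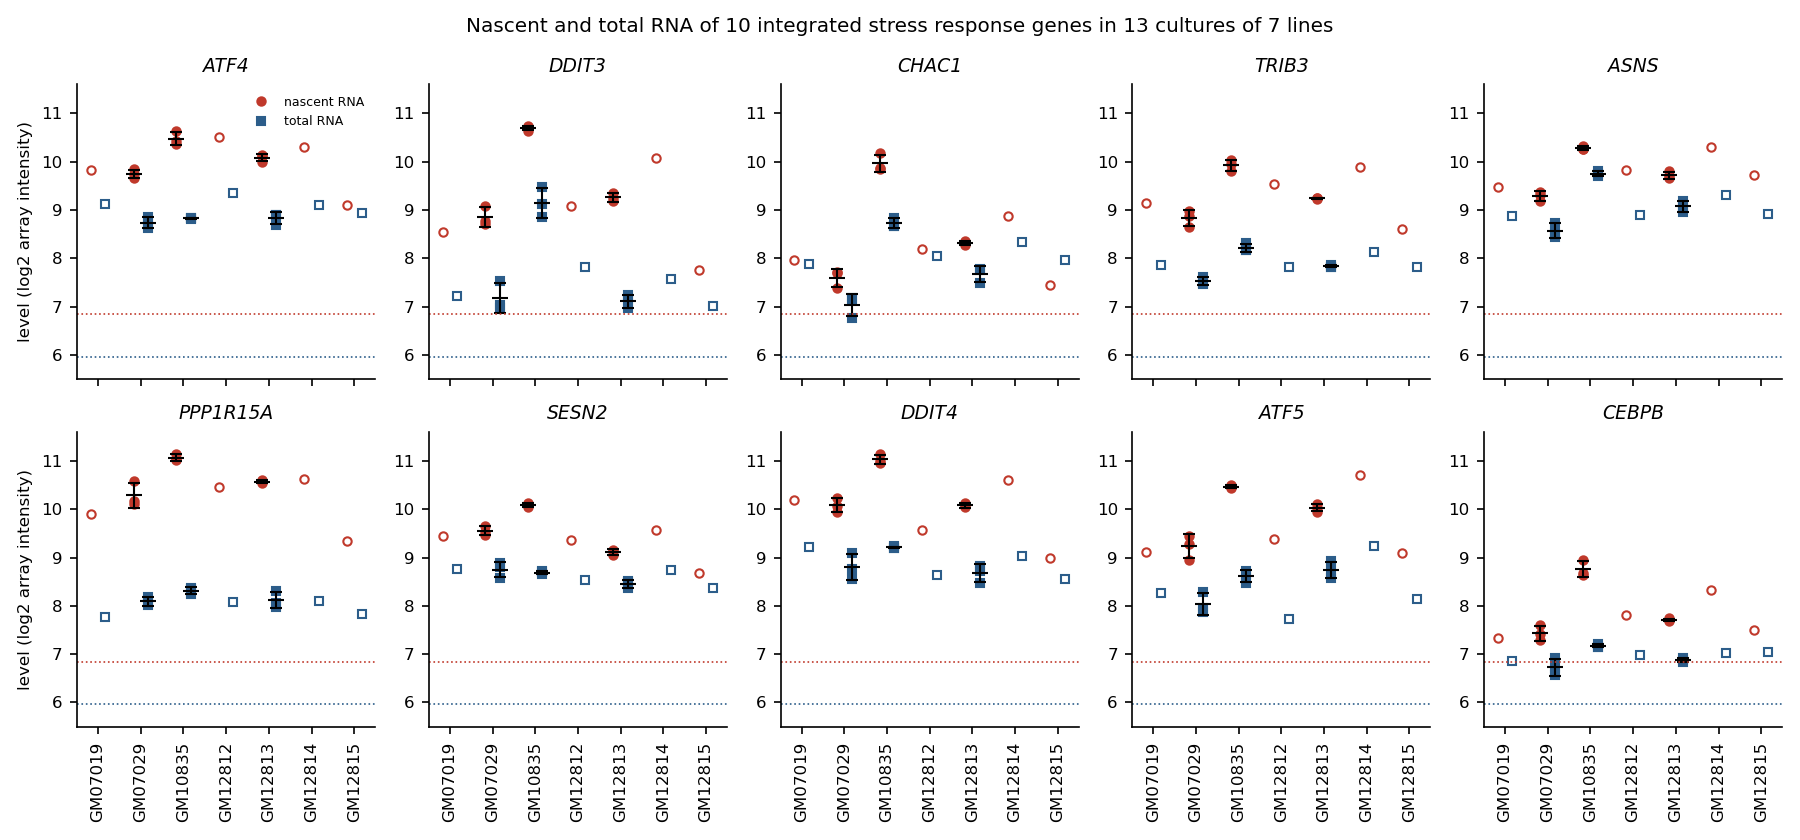
Deposited log2 intensity of the 10 genes in nascent RNA (circles) and total RNA (squares) of every culture, by line; filled symbols are the 3 lines with 3 cultures, with mean and SD, open symbols are single cultures, and dotted lines are the background of each fraction. The 3 nascent GM10835 values lie above all 6 nascent values of GM07029 and GM12813 in all 10 panels.

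GM07029, GM10835 and GM12813 had replicate cultures, and the study used them to ask whether RNA turnover differs between people. The p-values set differences between these lines against the spread between independent cultures of 1 line, not against the spread between donors. In nascent RNA all 10 genes differed between GM07029, GM10835 and GM12813, and each of them was highest in GM10835. All 10 were lower in GM07029 than in GM10835, most of all CHAC1 (4.35-fold) and DDIT3 (3.02-fold), and 9 of 10 were higher in GM10835 than in GM12813. By limma's moderated F test with Benjamini-Hochberg adjustment over all clusters, 10 of 10 genes passed an adjusted p of 0.05 in nascent RNA, against 55.8% of all clusters. For the 10 genes the 3 GM10835 cultures all lay above the 6 cultures of the other lines, an ordering seen in 18.2% of all clusters. In GM07029 minus GM10835, 10 of 10 were lower (22.8% of all clusters) with a median difference of -0.79 on the log2 scale, against 0.09 over all clusters, and none was higher (29.8% of all clusters). In GM10835 minus GM12813, 9 of 10 were higher (17% of all clusters), with a median of 0.63 against -0.10 over all clusters, and none was lower (25.5% of all clusters). The nascent culture medians themselves were higher in GM10835 (9.03 to 9.10) than in the other replicated lines (8.73 to 8.96), and the setting of each culture to its median takes this shift out. Both contrasts share the GM10835 cultures.

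Total RNA followed only in part. In this fraction 6 of the 10 genes passed the F test (DDIT3, CHAC1, TRIB3, ASNS, DDIT4 and ATF5), against 61.1% of all clusters, so their share was near the background. For 5 genes the 3 GM10835 cultures all lay above the other 6, against 18.6% of all clusters. These 6 were lower in GM07029 than in GM10835 (24.3% of all clusters) and none was higher, while 25.8% of all clusters were. In GM10835 minus GM12813, 4 were higher (DDIT3, CHAC1, ASNS and DDIT4, against 21.5% of all clusters) and none was lower, while 22.8% of all clusters were. ATF4, PPP1R15A, SESN2 and CEBPB passed in nascent RNA and did not pass in total RNA. The difference between the fractions is given by the F test of the nascent/total ratio, which 5 of the 10 genes passed (25.4% of all clusters): ATF4, CHAC1, SESN2, ATF5 and CEBPB. The ratio of each culture was set to its own median. A ratio difference therefore need not equal the nascent difference minus the total difference given beside it.

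**Figure D2:**
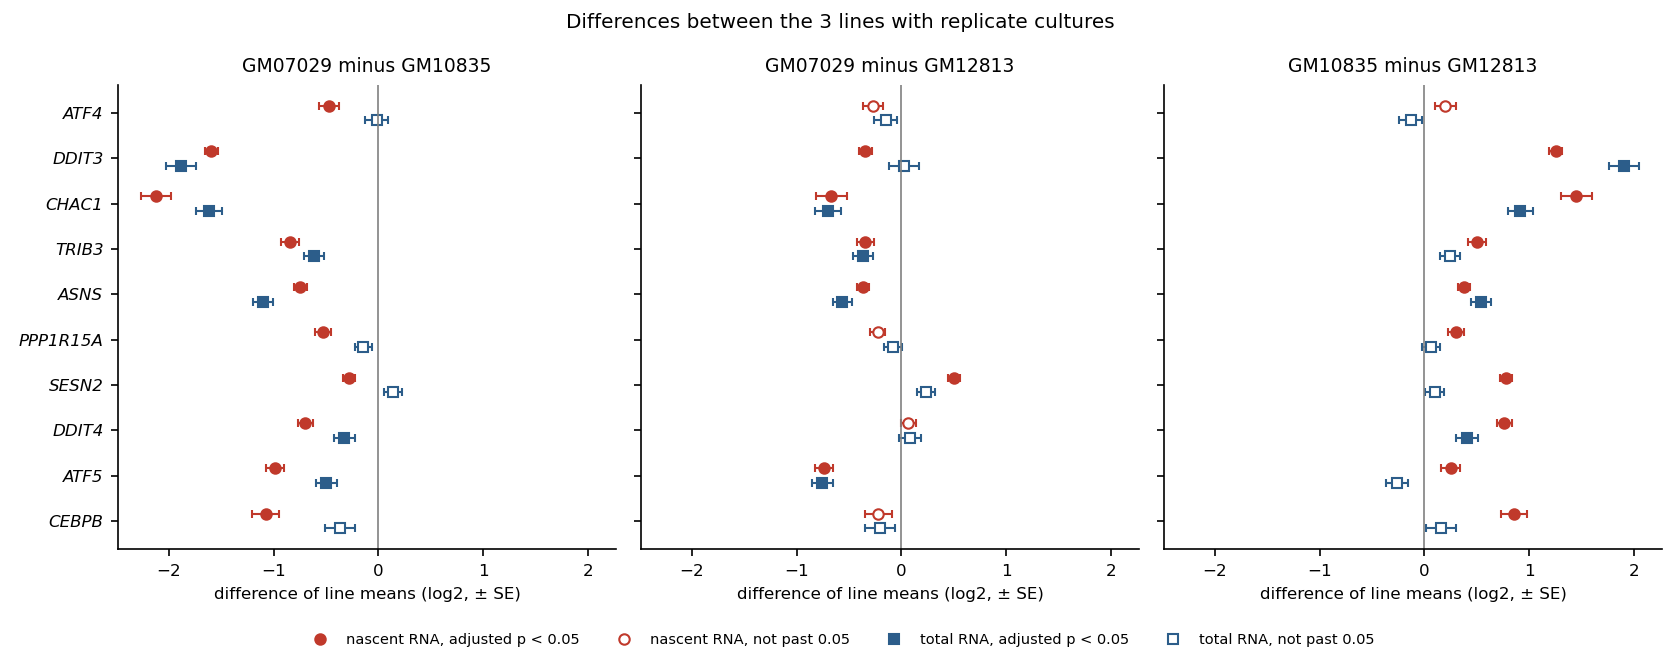
Differences of line means in log2 units with their standard errors for the 10 genes in nascent RNA (circles) and total RNA (squares), for the 3 pairs of lines with 3 cultures each; filled symbols passed an adjusted p of 0.05. In GM07029 minus GM10835 all 10 nascent values are negative and filled, and 6 of the total values are.

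ATF4 encodes the factor at the centre of the response, whose amount is mainly set by translation. Its nascent RNA read 9.75, 9.67 and 9.84 in the GM07029 cultures, 10.63, 10.37 and 10.43 in the GM10835 cultures, and 10.001, 10.14 and 10.12 in the GM12813 cultures. In total RNA ATF4 read 8.63, 8.71 and 8.86 in GM07029, 8.84, 8.83 and 8.83 in GM10835, and 8.69, 8.91 and 8.89 in GM12813. The GM10835 cultures thus stood above the other 6 in nascent RNA, whereas the 3 lines overlapped in total RNA. After each culture was set to its median, nascent ATF4 was lower in GM07029 than in GM10835 by a log2 difference of -0.47 ± 0.10 (SE; limma adjusted p = 0.00169). The difference of total RNA was -0.02 ± 0.11 (limma adjusted p = 0.917). GM10835 minus GM12813 did not pass for nascent ATF4 (0.20 ± 0.10, limma adjusted p = 0.124), the only one of the 10 genes of which this holds. This exception depends on the scaling: the difference was 0.39 without centring (adjusted p = 0.0027), and it also passed with no filter (0.0302) and with quantile normalization (0.0403). The ATF4 ratio differed between the 3 lines (limma adjusted p = 0.0152), with line means of 0.25 in GM07029, 0.81 in GM10835 and 0.46 in GM12813.

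DDIT3 encodes CHOP, a factor of the C/EBP family that ATF4 induces and that promotes cell death when stress lasts. Nascent DDIT3 read 9.09, 8.77 and 8.71 in the GM07029 cultures, 10.74, 10.72 and 10.65 in the GM10835 cultures, and 9.36, 9.24 and 9.18 in the GM12813 cultures. Total DDIT3 read 7.04, 6.97 and 7.54 in GM07029, 9.47, 8.86 and 9.13 in GM10835, and 7.24, 7.12 and 6.97 in GM12813. GM10835 was apart from both other lines in both fractions, with no overlap. Nascent DDIT3 in GM07029 minus GM10835 was -1.59 ± 0.07 (SE; limma adjusted p = 1.42e-08), and total DDIT3 was -1.89 ± 0.14 (3.70-fold lower, limma adjusted p = 7.9e-07). In GM10835 minus GM12813 the nascent difference was 1.25 ± 0.07 (limma adjusted p = 1.32e-07) and the total difference 1.91 ± 0.14 (3.75-fold higher, limma adjusted p = 8.08e-07). The F test of the DDIT3 ratio over the 3 lines did not pass (limma adjusted p = 0.0805). In the single contrasts DDIT3 was the 1 gene whose ratio passed as lower in GM10835 than in GM12813 (-0.63 ± 0.20, limma adjusted p = 0.0452, where 12.7% of all clusters were lower). This call was lost without the first or the third GM10835 culture (adjusted p = 0.159 and 0.115), without the second GM07029 culture (0.0541) and without any 1 GM12813 culture (0.0995 to 0.11). It was also lost with the replicate block (0.0589), without centring (0.0759), with no filter (0.138) and with 1 array per culture (0.088), so that 10 of 15 other settings took it away. Between GM07029 and GM12813, nascent DDIT3 was lower by -0.34 ± 0.07 (limma adjusted p = 0.00348), and the total difference was 0.02 ± 0.14 (limma adjusted p = 0.915).

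ATF5 encodes a further basic leucine zipper factor that is under the same translational control as ATF4. In nascent RNA ATF5 read 9.44, 8.96 and 9.29 in the GM07029 cultures, 10.49, 10.47 and 10.44 in the GM10835 cultures, and 9.95, 10.10 and 10.03 in the GM12813 cultures. In total RNA it read 7.88, 7.95 and 8.29 in GM07029, 8.66, 8.72 and 8.47 in GM10835, and 8.92, 8.72 and 8.59 in GM12813. GM07029 was lowest in both fractions. GM10835 lay above GM12813 in nascent RNA, and its deposited total values overlapped those of GM12813. Once each culture was set to its median, all total values of GM10835 lay below those of GM12813. Nascent ATF5 in GM07029 was lower than in GM10835 (-0.99 ± 0.09, limma adjusted p = 4.62e-06) and lower than in GM12813 (-0.74 ± 0.09, limma adjusted p = 0.000155). GM10835 minus GM12813 was 0.25 ± 0.09 in nascent RNA (limma adjusted p = 0.0395, past the threshold under 7 of 15 other settings) and -0.26 ± 0.10 in total RNA (limma adjusted p = 0.0549, past the threshold under 6 of 15 other settings). The ATF5 ratio was higher in GM10835 than in GM12813 by 0.54 ± 0.16 (limma adjusted p = 0.0347, where 10.4% of all clusters were higher), and this call was lost without any 1 culture of either line.

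CEBPB encodes C/EBP beta, a partner with which ATF4 and CHOP form dimers. Its nascent RNA read 7.41, 7.29 and 7.60 in the GM07029 cultures, 8.95, 8.65 and 8.68 in the GM10835 cultures, and 7.70, 7.71 and 7.74 in the GM12813 cultures. Its total RNA, close to background, read 6.70, 6.91 and 6.57 in GM07029, 7.15, 7.15 and 7.21 in GM10835, and 6.84, 6.92 and 6.87 in GM12813. The GM10835 cultures stood apart in the deposited values of both fractions, but in total RNA they overlapped GM12813 once each culture was set to its median. Nascent CEBPB in GM07029 minus GM10835 was -1.08 ± 0.13 (SE; limma adjusted p = 3.77e-05), against -0.36 ± 0.14 in total RNA (limma adjusted p = 0.0522). The total difference passed under several other settings, for instance without the second GM07029 culture (-0.50, adjusted p = 0.00798). Of the 10 genes CEBPB had the widest range of ratios between the 3 lines, with means of -0.06 in GM07029, 0.76 in GM10835 and 0.03 in GM12813 (limma adjusted p = 0.0106).

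PPP1R15A encodes GADD34, the inducible subunit that brings protein phosphatase 1 to eIF2 and ends the response. Nascent PPP1R15A read 10.58, 10.16 and 10.12 in the GM07029 cultures, 11.14, 11.03 and 11.01 in the GM10835 cultures, and 10.55, 10.57 and 10.60 in the GM12813 cultures. Total PPP1R15A read 8.07, 8.02 and 8.19 in GM07029, 8.35, 8.37 and 8.24 in GM10835, and 8.31, 8.07 and 7.99 in GM12813. The nascent values of GM10835 were again the highest, and the total values of GM10835 and GM12813 overlapped. Nascent PPP1R15A in GM07029 minus GM10835 was -0.53 ± 0.07 (SE; limma adjusted p = 0.000128), against -0.14 ± 0.08 in total RNA (limma adjusted p = 0.177). In GM10835 minus GM12813 the nascent difference was 0.30 ± 0.07 (limma adjusted p = 0.00713), against 0.06 ± 0.08 in total RNA (limma adjusted p = 0.574). The test of its ratio between the 3 lines did not pass (limma adjusted p = 0.102).

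TRIB3 encodes a pseudokinase that CHOP and ATF4 induce and that holds back both factors. Its nascent RNA read 8.97, 8.66 and 8.88 in the GM07029 cultures, 10.03, 9.81 and 9.95 in the GM10835 cultures, and 9.24, 9.25 and 9.24 in the GM12813 cultures. Its total RNA read 7.48, 7.47 and 7.62 in GM07029, 8.18, 8.31 and 8.17 in GM10835, and 7.87, 7.83 and 7.83 in GM12813. The order GM07029, GM12813, GM10835 from low to high held in both fractions without overlap of the deposited values. Nascent TRIB3 in GM07029 minus GM10835 was -0.84 ± 0.08 (SE; limma adjusted p = 1.13e-05), and in total RNA it was -0.61 ± 0.09 (limma adjusted p = 0.000185). GM10835 minus GM12813 was 0.50 ± 0.08 in nascent RNA (limma adjusted p = 0.000733) and 0.25 ± 0.09 in total RNA, which did not pass (limma adjusted p = 0.053). The total difference was 0.38 without centring and passed (adjusted p = 0.00652), as it did with no filter (0.014), without the first GM07029 culture (0.0468) and without the third GM12813 culture (0.0247).

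ASNS encodes asparagine synthetase, one of the classic targets of ATF4 when amino acids are short, and carries the first of the promoter stretches printed above. Nascent ASNS read 9.37, 9.32 and 9.19 in the GM07029 cultures, 10.26, 10.33 and 10.27 in the GM10835 cultures, and 9.66, 9.80 and 9.71 in the GM12813 cultures. Total ASNS read 8.74, 8.45 and 8.52 in GM07029, 9.81, 9.71 and 9.74 in GM10835, and 9.19, 9.08 and 8.97 in GM12813. The 3 lines did not overlap in either fraction. Nascent ASNS in GM07029 minus GM10835 was -0.74 ± 0.06 (SE; limma adjusted p = 2.2e-06), and in total RNA the difference was larger, -1.10 ± 0.09 (limma adjusted p = 1.58e-06). The difference of the ratio itself did not pass (0.25 ± 0.11, limma adjusted p = 0.148). GM10835 minus GM12813 was 0.38 ± 0.06 in nascent RNA (limma adjusted p = 0.000489) and 0.54 ± 0.09 in total RNA (limma adjusted p = 0.000449).

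CHAC1 encodes an enzyme that degrades glutathione, is induced through ATF4, and carries the second promoter stretch above. Its nascent RNA read 7.38, 7.69 and 7.71 in the GM07029 cultures, 10.18, 9.85 and 9.88 in the GM10835 cultures, and 8.33, 8.28 and 8.37 in the GM12813 cultures. Its total RNA read 6.77, 7.19 and 7.13 in GM07029, 8.84, 8.66 and 8.68 in GM10835, and 7.77, 7.78 and 7.49 in GM12813. The 3 lines were fully separated in both fractions, with GM07029 lowest and GM10835 highest. Nascent CHAC1 in GM07029 minus GM10835 was -2.12 ± 0.15 (SE; limma adjusted p = 7.55e-07), and in total RNA it was -1.62 ± 0.12 (3.07-fold lower, limma adjusted p = 7.29e-07). In GM10835 minus GM12813 it was 1.45 ± 0.15 in nascent RNA (2.73-fold higher, limma adjusted p = 2.28e-05) and 0.92 ± 0.12 in total RNA (1.89-fold higher, limma adjusted p = 6.68e-05). The CHAC1 ratio was lower in GM07029 than in GM10835 (-0.61 ± 0.11, limma adjusted p = 0.00799, where 7.64% of all clusters were lower). It was higher in GM10835 than in GM12813 (0.56 ± 0.11, limma adjusted p = 0.00539). The GM07029 values of CHAC1 lay near background (6.84 in nascent RNA and 5.97 in total RNA), which limits its differences and ratio for that line.

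SESN2 encodes sestrin 2, a stress-induced leucine sensor that restrains the growth kinase mTORC1. Nascent SESN2 read 9.66, 9.54 and 9.48 in the GM07029 cultures, 10.09, 10.13 and 10.05 in the GM10835 cultures, and 9.05, 9.17 and 9.14 in the GM12813 cultures. Total SESN2 read 8.88, 8.57 and 8.80 in GM07029, 8.69, 8.73 and 8.65 in GM10835, and 8.51, 8.50 and 8.36 in GM12813. For SESN2 GM12813 and not GM07029 was lowest, in both fractions and with no overlap. Nascent SESN2 in GM07029 was lower than in GM10835 (-0.28 ± 0.06, SE; limma adjusted p = 0.00162) and higher than in GM12813 (0.50 ± 0.06, limma adjusted p = 0.000128). It was the only one of the 10 genes to be higher in GM07029 than in GM12813 in nascent RNA (10.5% of all clusters were), while 5 were lower (DDIT3, CHAC1, TRIB3, ASNS and ATF5, against 10.1%). Of these TRIB3 did not pass without the second GM07029 culture (adjusted p = 0.0527) or the third GM12813 culture (0.0556), while ATF4 passed under 5 and PPP1R15A under 3 of 15 other settings. The F test in total RNA did not pass (limma adjusted p = 0.0822). The SESN2 ratio had the smallest adjusted p of the 10 genes between the lines (0.00284 by limma), with means of 0.04 in GM07029, 0.57 in GM10835 and -0.14 in GM12813.

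DDIT4 encodes REDD1, a second stress-induced inhibitor of mTORC1. Its nascent RNA read 10.24, 9.95 and 10.07 in the GM07029 cultures, 11.14, 10.96 and 11.00 in the GM10835 cultures, and 10.04, 10.13 and 10.08 in the GM12813 cultures. Its total RNA read 8.55, 8.76 and 9.10 in GM07029, 9.23, 9.19 and 9.21 in GM10835, and 8.82, 8.73 and 8.47 in GM12813. GM10835 was highest in both fractions, and GM07029 and GM12813 overlapped. Nascent DDIT4 in GM07029 minus GM10835 was -0.70 ± 0.07 (SE; limma adjusted p = 1.3e-05), and GM10835 minus GM12813 was 0.76 ± 0.07 (limma adjusted p = 1.26e-05). In total RNA these differences were -0.32 ± 0.10 (limma adjusted p = 0.0206) and 0.40 ± 0.10 (limma adjusted p = 0.00725), and the first was lost without the first or the second GM10835 culture (adjusted p = 0.0551 and 0.057).

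In the ratio, GM07029 minus GM10835 was lower for 5 of the 10 genes (ATF4, CHAC1, SESN2, ATF5 and CEBPB) and higher for none, while 7.64% of all clusters were lower and 6.23% higher. GM10835 minus GM12813, which shares the GM10835 cultures, was higher for the same 5 genes and lower for DDIT3, while 10.4% of all clusters were higher and 12.7% lower. For DDIT3 the F test of the ratio did not pass. The ATF4 call in GM10835 minus GM12813 was lost without any 1 culture of either line (adjusted p = 0.0563 to 0.171), with the replicate block (0.0659), with no filter (0.0786) and with 1 array per culture (0.123). Its call in GM07029 minus GM10835 was lost with 1 array per culture (0.0576), and its F test there (0.0699) and without the first or the third GM10835 culture (0.0583 and 0.0567). The ATF5 call in GM07029 minus GM10835 was lost under 9 of 15 other settings (0.0534 to 0.121), among them the second or the third GM07029 culture left out (0.0901 and 0.0799), any 1 GM10835 culture left out, the second GM12813 culture left out and the replicate block (0.0665). In GM10835 minus GM12813 the ATF5 call was lost with the replicate block too (0.064), and its F test was lost without any 1 culture of GM10835 or GM12813 (0.0553 to 0.13). The CEBPB call in GM10835 minus GM12813 was lost without the first GM10835 culture (0.61, adjusted p = 0.051). For CHAC1 and SESN2 both contrasts passed under all 15 other settings. For 7 of the 10 genes all 3 ratios of GM10835 lay above the 6 ratios of the other lines, against 11.8% of all clusters. No gene passed in GM07029 minus GM12813, where 0.889% of all clusters were higher and 4.91% lower.

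The nascent/total ratio over all 7 lines asks which of the genes have more newly made RNA relative to their total RNA than the median cluster. PPP1R15A, DDIT3, TRIB3, ATF5 and DDIT4 did, CHAC1 had less, and ATF4, CEBPB, SESN2 and ASNS did not pass. That is 6 of 10 past the threshold, against 63.5% of all clusters, and the counts of 5 higher and 1 lower stand against 31.7% higher and 31.7% lower, and the median of the 10 genes was 0.34 against -0.01. The zero of this scale is the median cluster of each culture. Without it the nascent value exceeded the total value by 0.77 log2 units in the median cluster, with 0.65 to 0.88 in single cultures. All 10 genes then passed as higher. Of the clusters that passed in either direction 93.9% were higher. The share among all clusters tested is not given here, so this count is not read as a trait of the 10 genes.

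PPP1R15A had the highest ratio of the 10 genes, 1.51 ± 0.33 on the log2 scale (SD, n = 7 lines; limma adjusted p = 1.43e-06). This is 2.84 times the ratio of the median cluster and higher than the ratio of 96.1% of all clusters. Its line values ran from 0.86 in GM12815 over a median of 1.58 to 1.92 in GM10835. DDIT3 followed with 0.83 ± 0.53 (SD, n = 7; limma adjusted p = 0.000827), from 0.10 in GM12815 over a median of 0.72 to 1.63 in GM12814. TRIB3 stood at 0.65 ± 0.27 (SD, n = 7; limma adjusted p = 0.000163), from 0.14 in GM12815 over 0.60 to 0.90 in GM12812. These 3 genes and ATF5, at 0.55 ± 0.30 (limma adjusted p = 0.000832), were positive in all 7 lines and past the threshold, as 24.6% of all clusters were. ATF5 ran from 0.16 in GM07019 over a median of 0.48 to 1.02 in GM10835.

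DDIT4 stood at 0.43 ± 0.40 (SD, n = 7; limma adjusted p = 0.0128), positive in 6 of 7 lines and -0.22 in GM12815. ATF4 stood at 0.25 ± 0.40 (limma adjusted p = 0.113), also positive in 6 lines, with -0.49 in GM12815. Without GM12815 the ATF4 mean was 0.37 and passed (limma adjusted p = 0.00933). CEBPB at 0.11 ± 0.35 (limma adjusted p = 0.424), SESN2 at 0.02 ± 0.27 (limma adjusted p = 0.878) and ASNS at -0.02 ± 0.17 (limma adjusted p = 0.798) lay near the median cluster. ASNS varied least between lines, from -0.30 in GM10835 to 0.16 in GM12815. CHAC1 was the one gene that passed as lower than the median cluster, at -0.38 ± 0.49 (limma adjusted p = 0.0406). It ran from -1.17 in GM12815 over a median of -0.34 to 0.41 in GM10835, the only line with a positive value. This call was lost without any 1 of the other 6 lines, for which the adjusted p lay between 0.0509 and 0.113, and it is the weakest of the 6.

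The lines spread in a like way over most of the genes. GM10835 had the highest ratio of the 7 lines for 7 of the 10 genes (24.6% of all clusters), all but DDIT3, TRIB3 and ASNS. GM12815 had the lowest ratio for 7 (18.3% of all clusters), all but ASNS, ATF5 and CEBPB. The median ratio of the 10 genes was 0.79 in GM10835 and -0.04 in GM12815. GM12815 is a single culture, and its nascent array was the one that correlated least with other lines.

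**Figure D3:**
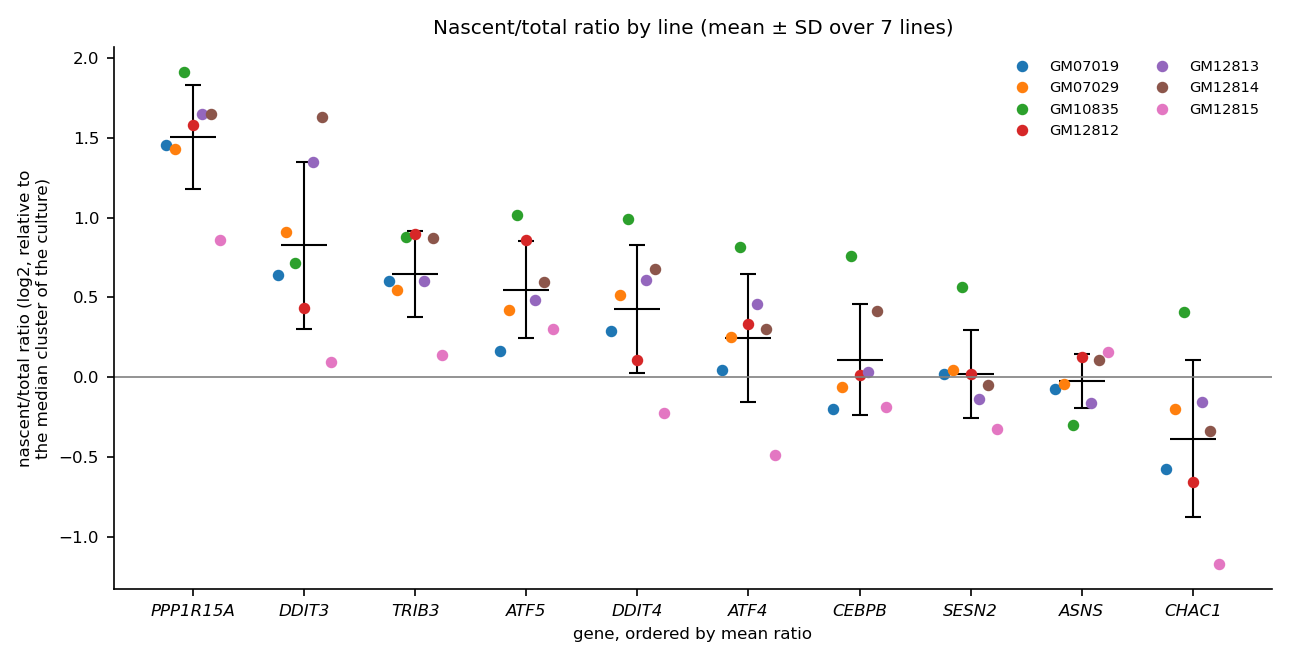
Nascent/total ratio (log2, with 0 at the median cluster of a culture) of the 10 genes, ordered by mean, with 1 point for each of the 7 lines and bars for the mean and SD over lines. PPP1R15A is highest with a mean of 1.51 and CHAC1 lowest with -0.38, and GM12815 is the lowest point in 7 of the 10 genes.

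Relative to the mean of the 7 lines, nascent RNA of all 10 genes was above it in GM10835 and in GM12814, as 39.1% and 57.5% of all clusters were. GM10835 was the highest line for 6 genes (DDIT3, CHAC1, PPP1R15A, SESN2, DDIT4 and CEBPB, against 10.6% of all clusters), GM12814 for 3 (TRIB3, ASNS and ATF5, against 8.29%) and GM12812 for ATF4 (22.1%). The median deviation of the 10 genes was 0.49 in GM10835 and 0.51 in GM12814, and it was -0.49 in GM12815, -0.38 in GM07019 and -0.37 in GM07029. In GM12813 it was -0.07. Nascent DDIT3 spread most, over 2.37 log2 units between GM12815 and GM10835, followed by CHAC1 with 2.12 between GM07029 and GM10835. Nascent SESN2 spread least, over 0.82 log2 units. GM12814 is a single culture, so its place has no replicate check.

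In total RNA GM12814 was above the 7-line mean for all 10 genes as well (60.2% of all clusters) and highest for 5 (TRIB3, PPP1R15A, SESN2, DDIT4 and ATF5, against 13% of all clusters). GM10835 was highest for DDIT3, CHAC1 and ASNS (21.2% of all clusters). GM07029 was lowest for 5, namely ATF4, CHAC1, TRIB3, ASNS and CEBPB (19% of all clusters). Total ATF5 spread over 1.65 log2 units, from GM12812 to GM12814, and total DDIT3 over 1.97, with GM10835 alone far above the rest. Total SESN2 spread over 0.41 log2 units, DDIT4 over 0.53, CEBPB over 0.55, PPP1R15A over 0.64 and ATF4 over 0.68.

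**Figure D4:**
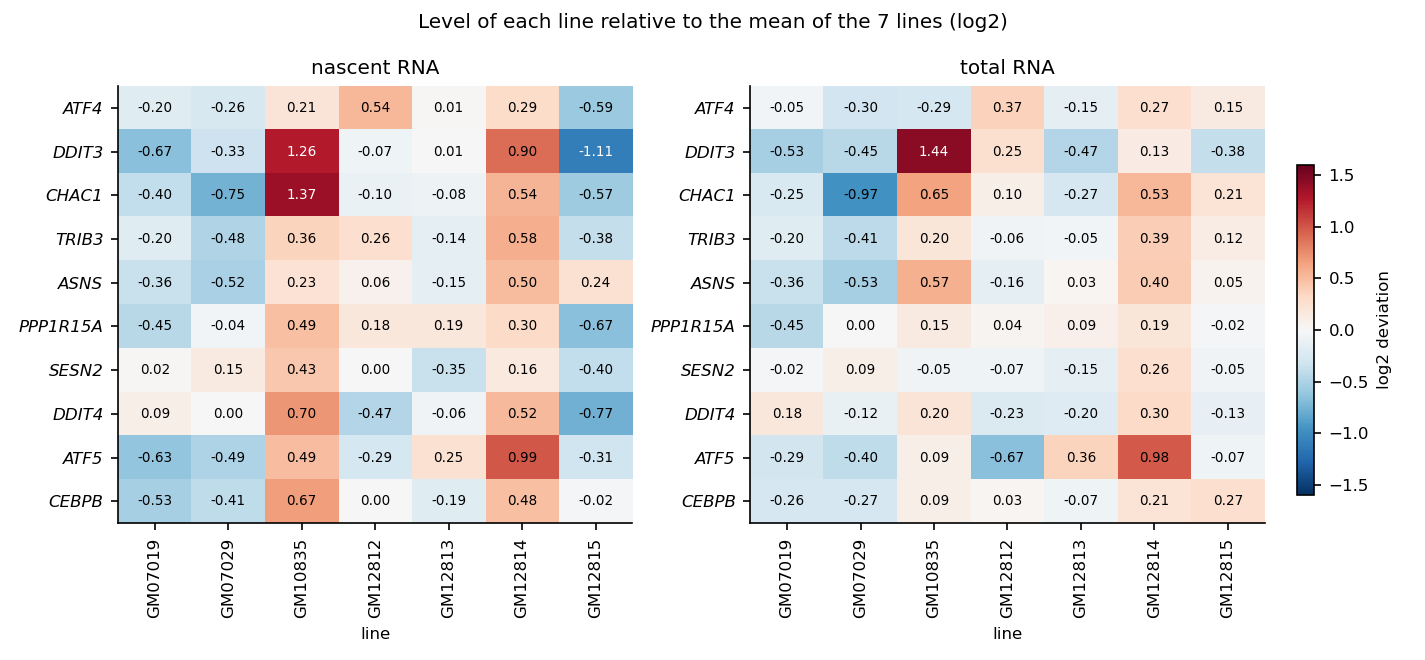
Level of each of the 7 lines minus the mean of the 7 lines (log2, each culture set to its median first) for the 10 genes in nascent RNA and in total RNA; red is above and blue below the mean. In nascent RNA the GM10835 and GM12814 columns are above the mean for all 10 genes.

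Across the 7 lines all 45 pairs of the 10 genes had a positive Pearson correlation of their nascent levels, with a median of 0.71. Over every pair of the clusters tested, 52.3% were positive, with a median of 0.04. In total RNA 42 of 45 pairs of the 10 genes were positive with a median of 0.49, against 52.2% and a median of 0.03 over every pair of clusters. The most alike pair was DDIT3 and PPP1R15A in nascent RNA (0.92) and CHAC1 and TRIB3 in total RNA (0.93). The least alike was ASNS and SESN2 in nascent RNA (0.08) and ATF4 and DDIT3 in total RNA (-0.09). The value for ATF4 and DDIT3 rests on GM10835, without which it was 0.85. Without GM10835 the median over pairs was 0.65 in nascent RNA (43 positive) and 0.51 in total RNA (44 positive). These are descriptions over 7 lines in which all genes of a line share the same cultures and arrays.

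The other genes of the pathway were taken from 6 lists, and up to 4 genes of each, those with the largest ratios past the threshold, are given with values; further names were added after their values were seen. Their counts stand beside the shares of all clusters: 22.8% lower and 29.8% higher in nascent RNA of GM07029 minus GM10835, 17% higher and 25.5% lower in nascent RNA of GM10835 minus GM12813, and 31.7% each way in the ratio over 7 lines. Genes for amino acid synthesis and transport, the targets of ATF4 that supply amino acids, came nearest to the 10 genes: 13 of 15 were lower in nascent RNA of GM07029 than of GM10835 (median -0.79), and 11 of 15 were higher in GM10835 than in GM12813 (median 0.42). The amino acid transporter genes SLC38A2 and SLC1A4 ran otherwise: SLC38A2 was higher in the first contrast (0.26) and lower in the second (-0.36), and SLC1A4 was lower in both (-0.88 and -0.16). SHMT2, which makes glycine from serine, was at -1.09 and 0.62 in these contrasts, PHGDH, the first enzyme of serine synthesis, at -1.02 and 0.68, and SLC3A2, a shared chain of amino acid transporters, at -0.79 and 0.67. SLC7A1, the arginine transporter, was at -0.39 and 0.20. The values of these 4 genes all passed (largest limma adjusted p = 0.00851). In the ratio over 7 lines the list was split, with 4 higher (SLC7A1 at 1.27, SLC3A2 at 1.14, SLC7A11 and MTHFD2) and 5 lower (SHMT2 at -0.92, PHGDH at -0.76, CTH, ALDH18A1 and CBS).

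Of 12 aminoacyl-tRNA synthetase genes, which load tRNAs with amino acids, 7 were lower in nascent RNA of GM07029 than of GM10835 and 5 were higher in GM10835 than in GM12813 (CARS1, EPRS1, MARS1, SARS1 and YARS1). In the opposite direction, TARS1 was higher in the first contrast (0.15) and none was lower in the second. CARS1 was at -0.51 and 0.39 and EPRS1 at -0.30 and 0.19, all past the threshold. WARS1 (-0.01 and -0.004) and IARS1 (0.14 and -0.10) did not pass. In the ratio 3 of 12 were higher, a share below that of all clusters (CARS1 at 1.42, EPRS1 at 1.01 and YARS1), and 6 lower (WARS1 at -1.18 and IARS1 at -0.87 among them).

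Of 17 genes of the other branches of the unfolded protein response, 12 were lower in nascent RNA of GM07029 than of GM10835 (22.8% of all clusters) and 11 higher in GM10835 than in GM12813 (17%). SEL1L, a partner of SYVN1 in protein degradation, was higher in the first contrast (0.37), and none was lower in the second. HSPA5, the chaperone BiP of the endoplasmic reticulum, was at -0.45 and 0.72, its co-chaperone DNAJB11 at -0.30 and 0.54, and the ubiquitin ligase SYVN1 at -0.41 and 0.31, all past the threshold. CALR, the lectin chaperone calreticulin, was at 0.12 and -0.11 and did not pass. Their ratios over 7 lines were 1.58 for HSPA5, 1.89 for DNAJB11, 0.97 for SYVN1 and -1.20 for CALR, and the list had 6 of 17 higher, near the 31.7% of all clusters, and 8 lower.

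Other stress-induced targets had 9 of 19 lower in nascent RNA of GM07029 than of GM10835 and 5 of 19 higher in GM10835 than in GM12813 (ATF3, HERPUD1, KLHL24, VLDLR and HMOX1, against 17% of all clusters). In the opposite direction 2 were higher in the first contrast (TNFRSF10B and BCL2L11) and 3 lower in the second (BCL2L11, NUPR1 and ERO1A). BCL2L11, which encodes the death-promoting protein BIM, was at 0.33 and -0.85. The factor ATF3 did not pass in the first contrast (0.11) and was higher in the second (0.60), while the death receptor TNFRSF10B ran the other way to the 10 genes in the first (0.57, limma adjusted p = 4.62e-05) and did not pass in the second (-0.07). TXNIP, an inhibitor of thioredoxin, was at -0.39 in the first and at -0.09, which did not pass, in the second. ERO1A, an oxidase of the endoplasmic reticulum, was at 0.09, which did not pass, and at -0.19, which did. In the ratio 9 were higher, with ATF3 at 1.89, TNFRSF10B at 1.72 and TXNIP at 1.00, and 5 lower, with ERO1A at -2.03 beside VEGFA, XPOT, EIF4EBP1 and HMOX1.

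Upstream of ATF4, of 11 tested genes for eIF2 kinases, the eIF2 phosphatase and their relay, 2 were lower in nascent RNA of GM07029 than of GM10835, 2 were higher in that contrast (the kinase genes EIF2AK2 and EIF2AK4), 2 were higher in GM10835 than in GM12813, and 4 were lower in that second contrast, against 25.5% of all clusters. These 4 were EIF2AK2 (-0.62), EIF2AK4 (-0.61) and the phosphatase genes PPP1CB (-0.26) and PPP1CC (-0.23). EIF2AK3, which encodes the kinase PERK of the endoplasmic reticulum, was at -0.52 and 0.21 and PPP1CA, the catalytic subunit of protein phosphatase 1, at -0.68 and 0.36, and these were the 2 genes lower in the first contrast and the 2 higher in the second. EIF2AK1 (0.13 and -0.02) and PPP1R15B (0.04 and -0.06), the constitutive relative of PPP1R15A, did not pass. In the ratio 3 were higher (PPP1R15B at 0.55, EIF2AK3 at 0.53 and EIF2AK2) and 6 lower (PPP1CA at -1.59 and EIF2AK1 at -0.53 among them).

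Of 10 relatives of the 10 genes 7 were tested, of which 3 were lower and 2 higher in nascent RNA of GM07029 than of GM10835, and 3 were higher and 2 lower in GM10835 than in GM12813. TRIB1, a pseudokinase related to TRIB3, was at -1.91 and 1.36 (limma adjusted p = 5.15e-10 and 7.51e-09), close to CHAC1 in size. CEBPG, a partner of ATF4, was at -0.48 and 0.18, the second of which did not pass, and CHAC2, related to CHAC1, passed in both (-0.69 and 0.46). SESN3, a further sestrin, ran the other way with a size near that of TRIB1, at 1.74 and -1.44 (limma adjusted p = 5.04e-08 and 3.86e-07). DDIT4L, related to DDIT4, was at 0.07, which did not pass, and at -0.82 (limma adjusted p = 0.00182). SESN1, a relative of SESN2 that p53 induces, was at 0.56 and 0.39, and was thus higher in GM07029 than in GM10835. Its total RNA, at a mean of 5.21, was below background, so its ratio of 1.77 is uncertain. The ratios of TRIB1 (0.37) and CEBPG (0.34) were also higher, and no tested relative was lower.

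**Figure D5:**
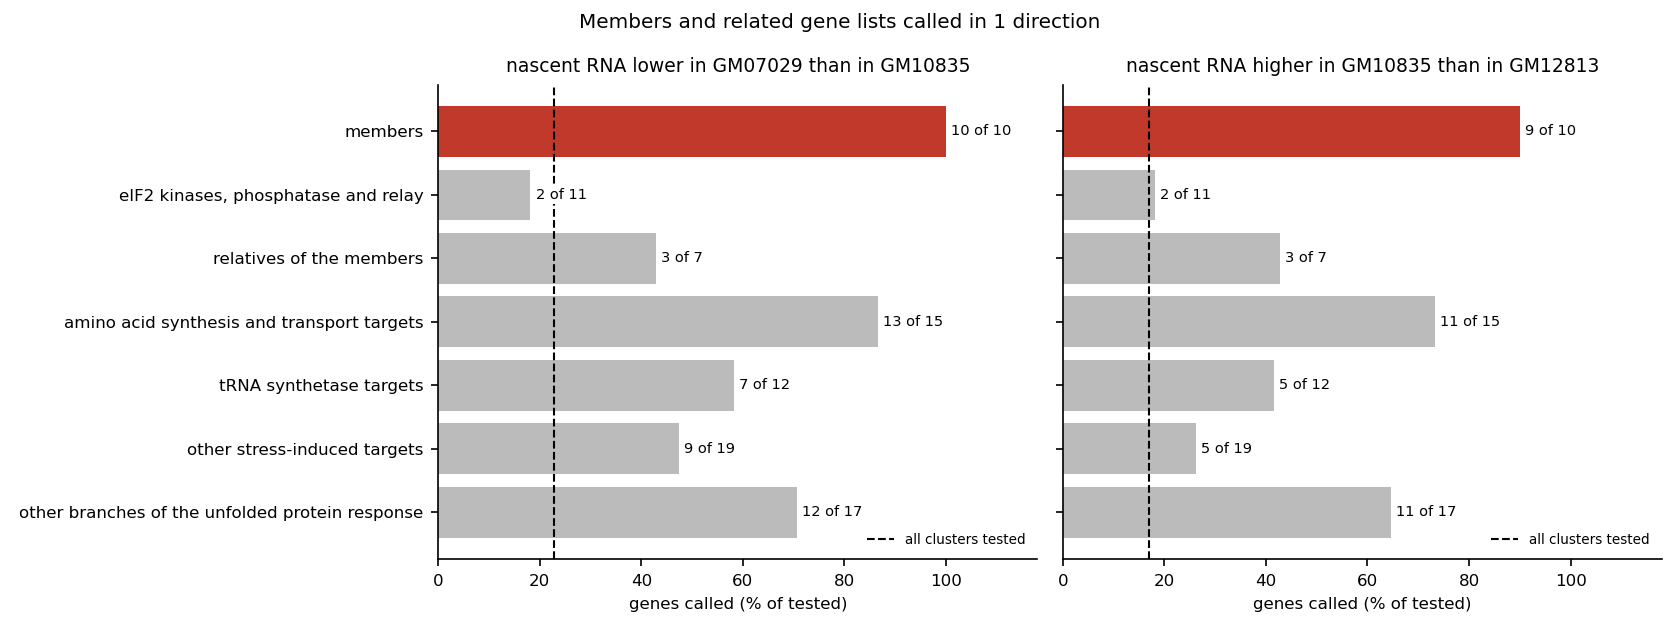
Share of tested genes called at an adjusted p of 0.05 in nascent RNA for the 10 genes (members) and 6 lists of related genes, lower in GM07029 than in GM10835 on the left and higher in GM10835 than in GM12813 on the right, with counts beside the bars and all clusters tested as a dashed line. The 10 genes reach 10 of 10 and 9 of 10, the amino acid list 13 of 15 and 11 of 15, and the eIF2 kinase list 2 of 11 in both.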

How the data were processed

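Log2 intensities of 21788 transcript clusters on 32 human exon arrays were used as deposited by the authors, with no missing value. Per the labels' protocols, cells received 200 µM 4sU for 2 h, nascent RNA was separated from total RNA, ribosomal RNA was reduced and cDNA was made with whole-transcript kits. Affymetrix Power Tools and the hg18 build stand in the submitters' processing notes. How probes were summarized and corrected for background, and if nascent and total arrays were normalized jointly, is not given in the sources used here. Only ratios relative to other clusters of a culture can therefore be read, and the number of arrays limits the precision.

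Gene names came from the platform's table, with 1 symbol for 14405 clusters, several for 2365 and none for 5018, and 14377 of the 14405 were matched to current RefSeq symbols. Clusters whose mean was above 6.40, the 95th percentile of 216 olfactory receptor clusters, were tested (14167). Technical duplicates were averaged, and the nascent and total values of each culture were each set to their own median over these clusters. The nascent/total ratio was taken within a culture before this step and was then set to the median of the ratios. limma 3.58.1 in R 4.3.3 (lmFit, eBayes with a trend, two-sided, Benjamini-Hochberg over all clusters tested, threshold 0.05) tested 1 mean per line against 0 over 7 lines. It also gave the moderated F tests and 3 contrasts over the 9 cultures of the replicated lines, for the ratio, nascent RNA and total RNA. The code was tested on simulated data. A fold is 2 to the power of the log2 difference after this centring.

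All 10 genes are named whatever their values, each by its cluster of highest mean. Of 6 lists (eIF2 kinases, phosphatase and relay; relatives of the 10 genes; amino acid synthesis and transport; tRNA synthetases; other stress-induced targets; other branches of the unfolded protein response) up to 4 genes of largest ratio past the threshold are named. Marker lists of B cells, T and NK cells, monocytes and granulocytes, and fibroblasts and epithelia served as a check of the cell type. The genes and lists were chosen with earlier results of these data known. Alternatives were no centring, no filter and a stricter one, quantile normalization, 1 array per culture, removal of a trend with signal, other treatments of culture and replicate number, and leaving out each line or culture.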

Additional observations from a re-analysis of the deposited data

Results flagged for a closer look

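Among the values of the 10 genes over 7 lines, 3 had an extreme line by Dixon's criterion, the gap to the nearest line divided by the whole range. Chance alone marks about 1 in 20 such groups, and 30 groups were looked at. The SESN2 ratio was 0.57 in GM10835, with the nearest line at 0.04 (gap share 0.586). Total DDIT3, relative to the culture median, was 1.13 in GM10835, with the nearest line at -0.06 (gap share 0.604). Total PPP1R15A was lowest in GM07019 at -0.30, with the nearest line at 0.12 (gap share 0.659), and GM07019 is a single culture.

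The nascent/total ratio differed between GM07029, GM10835 and GM12813 by limma's moderated F test for ATF4 (adjusted p = 0.0152), CHAC1 (0.00544), SESN2 (0.00284), ATF5 (0.0327) and CEBPB (0.0106). For all 5 genes the 3 GM10835 cultures had the highest ratios of the 9 cultures.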

How the results depend on the processing

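Of 1950 recomputed values of the 10 genes, 1825 kept their direction and their side of the threshold, 74 no longer passed, 49 newly passed and 2 changed sign. Both sign changes were ratios over 7 lines without centring, CHAC1 at 0.39 and ASNS at 0.75. Genes with a higher ratio over 7 lines numbered 5, 10 without centring, and 2 with no replicate block, where nascent and total line means were treated as independent samples. Without each line in turn they numbered 5 to 6, and clusters called 8320 to 8952 (8991 with all lines). In the ratio between 3 lines 3595 clusters were called, 2012 with no filter and 2142 with 1 array per culture, where 3 of the 10 genes passed in place of 5. Without each culture in turn 1808 to 5065 clusters and 3 to 8 genes were called. Without each culture, 6940 to 9554 clusters and 10 genes passed in nascent RNA, and 7671 to 8862 clusters and 6 to 7 genes in total RNA. Replicate numbers showed little pairing of the cultures. Correlations of same-numbered deviations ran from -0.43 to 0.20 in the ratio, from -0.46 to 0.39 in nascent RNA and from -0.43 to 0.11 in total RNA. The same number correlated best in 3 of 18 comparisons in the ratio, 3 of 18 in nascent RNA and 6 of 18 in total RNA. With the replicate block 2458 clusters and 4 genes were called in the ratio, 7233 and 10 in nascent RNA, and 8112 and 6 in total RNA. The lower nascent RNA in GM07029 than in GM10835 passed for each of the 10 genes under all 15 alternatives. Total CEBPB (lowest culture 6.57), CHAC1 (6.77) and DDIT3 (6.97) lie near their background of 5.97, and nascent CEBPB (7.29) and CHAC1 (7.38) near 6.84, which limits their ratios.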

Other observations

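In total RNA of GM07029 minus GM10835 the amino acid list had the largest share of lower genes of the 6 lists. There 13 of 15 genes were lower (24.3% of all clusters), with a median of -0.81 on the log2 scale. In GM10835 minus GM12813, 10 of 15 were higher (21.5% of all clusters) and 2 lower (22.8%), with a median of 0.61. In that contrast the other branches of the unfolded protein response had 12 of 17 higher and 2 lower, with a median of 0.41. PHGDH was at -2.18 in the first contrast and 1.36 in the second, and PSAT1, the next enzyme of serine synthesis, named after its values were seen, was at -2.71 and 1.57. In both the ratio was higher in GM07029 than in GM10835 (1.05 for PHGDH and 1.07 for PSAT1), opposite in direction to ATF4, CHAC1, SESN2, ATF5 and CEBPB. Of the tRNA synthetase genes 9 of 12 were lower in total RNA of GM07029 than of GM10835, against 8 of 17 in the other branches of the unfolded protein response.

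The technical duplicates of GM12813 differed for the 10 genes by a median of 0.07 log2 units in nascent RNA (at most 0.28, DDIT3) and of 0.10 in total RNA (at most 0.43, PPP1R15A).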
